A study of Mus musculus with 6 samples.

Results

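The 9 genes described here encode the proteins that release calcium from the sarcoplasmic reticulum of heart muscle and take it back: Ryr2, Ryr3, Casq2, Trdn, Jph2, Hrc, Atp2a2, Pln and Slc8a1. They were picked by name with earlier results of these data known, so the number of them that moved is not independent evidence. All 9 were found among the 14549 genes of the deposited table. The RNA came from the epicardium and subepicardium, the outer layers of the heart, dissected from mouse embryos at E16.5. The 3 control libraries carry the genotype label Wild-type, and the 3 libraries called dKO carry the label Meis1-Meis2 KO. The protocol gives the mutant as Meis1fl/fl;Meis2fl/fl;WT1-Cre, in which Cre recombinase under control of Wt1, a gene active in the epicardium, removes floxed parts of Meis1 and Meis2, so that cells with no history of WT1-Cre activity keep both genes. No source read for this work says if the control embryos carried floxed alleles or the Cre. Each library is a pool of epicardia from 2 hearts of the same genotype, and p-values therefore speak of the spread between pools. Controls are numbered 1, 2 and 4 as their titles number them, and dKO libraries 1, 2 and 3.

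In a beating heart muscle cell, calcium that enters through L-type channels of the surface membrane opens ryanodine receptors, the release channels of the sarcoplasmic reticulum, and the released calcium starts contraction. The pump SERCA2, encoded by Atp2a2, returns calcium to the store and is held back by phospholamban (Pln), while the sodium-calcium exchanger (Slc8a1) moves calcium out of the cell. Calsequestrin 2 (Casq2) buffers calcium inside the store and is tied to the release channel by triadin (Trdn), the histidine-rich calcium binding protein (Hrc) also lies in the store, and junctophilin 2 (Jph2) holds the store close to the surface membrane. Mesothelial cells of the epicardium are not known for this machinery as a set, which is best known from muscle. Single members, Ryr3 among them, are also expressed in other tissues.

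All values are normalised reads, scaled to 1000000 reads of a normalised library size, a linear scale on which 1 read was worth 0.0487 to 0.0740, and recovered library totals ran from 13146322 to 20635676 reads. Meis2 was at 86.1, 85.6 and 63.3 in control 1, 2 and 4 and at 44.5, 34.8 and 44.5 in dKO 1, 2 and 3 (log2 change -0.90, SE 0.16, limma adjusted p = 0.0035). Meis1 was at 106, 63.6 and 63.4 in the controls and at 58.5, 74.1 and 64.97 in the dKO libraries (log2 change -0.20, limma adjusted p = 0.521), so the groups were separate for Meis2 and overlapped for Meis1. These values cover all exons and do not measure the deleted parts. Of 17 epicardial and mesothelial markers 16 were lower in dKO, and their summed level was 2679 to 4023 in controls and 536 to 663 in dKO. Of 25 cardiomyocyte markers, none of which is among the 9 genes, 24 were higher in dKO and 0 lower. Their summed level was 6544 to 14485 in controls and 34149 to 36364 in dKO, so heart muscle RNA was present in every library of this epicardial dissection and took a larger part of the dKO libraries. In bulk RNA of this kind, a different share of muscle cells and a different amount of RNA per muscle cell cannot be told apart. Mitochondrial transcripts took 5.99% to 10.35% of the reads in controls and 11.3% to 19.9% in dKO, most of all in dKO 1, and their part in the changes of the 9 genes was not tested.

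All 9 calcium genes were higher in dKO than in control, and for all 9 the lowest dKO library lay above the highest control library. Each passed the limma test across all genes (adjusted p under 0.05), where 9.81% of the 14549 genes were called higher in dKO, 22.0% were called in either direction, 19.3% had all dKO libraries above all controls, and 40.4% had separate groups in either direction. The log2 changes, taken on log2 of the value plus 1 as dKO minus control, ran from 1.27 for Casq2 to 2.49 for Ryr3 with a median of 1.55, beside a median of 0.00 over all genes and 1.68 over the cardiomyocyte markers. The count of 9 was the same with edgeR on recovered reads, in each fit that left out 1 library, and with control 1 and dKO 1 left out together, where the changes ran from 0.90 to 1.96. Among the controls, control 1 was the lowest for 9 of 9 genes. Among the dKO libraries, dKO 1 was the lowest for 7 of 9 and the highest for Ryr3 and Jph2.

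**Figure D1:**
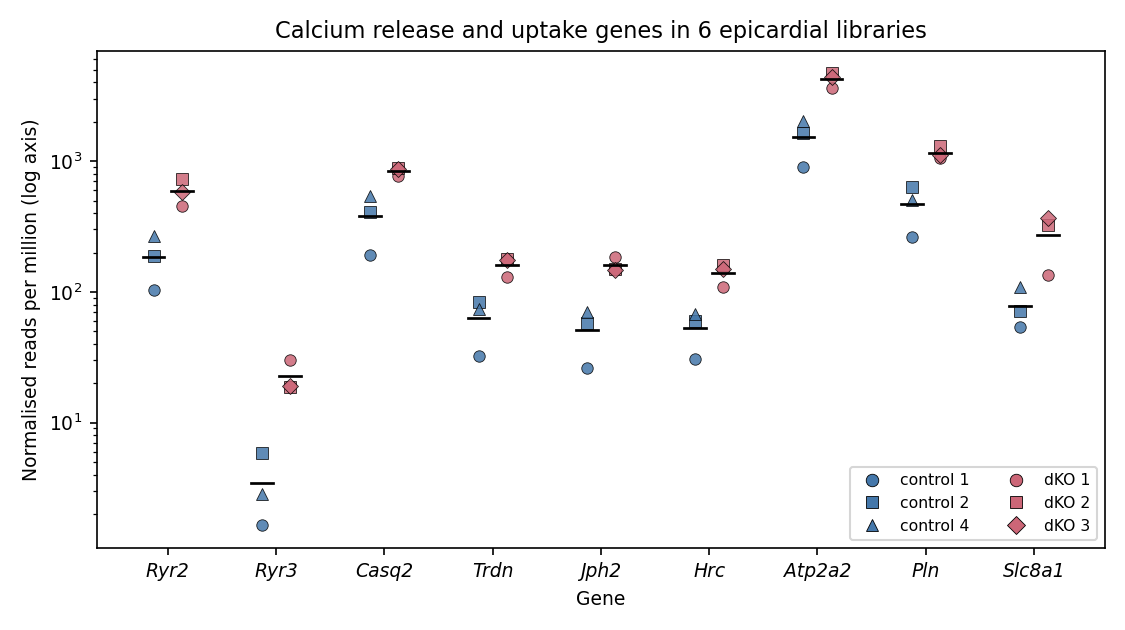
Normalised reads (log axis) of the 9 genes in each library, with controls in blue, dKO libraries in red, a symbol for each library number and a black line at each group mean. For every gene the 3 dKO points lie above the 3 control points, and control 1 (blue circle) is the lowest control throughout.

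Promoters of the set were inspected because the 9 genes moved together, with RefSeq windows (GRCm38.p6) from 250 bases before to 50 bases after a start site. The table matched 6 of the 9 genes, with 7 windows (Jph2 has 2 that overlap). Ryr3, Trdn and Atp2a2 had no entry. The letters searched on both strands were the core site TGACAG known for MEIS proteins, the muscle element CATTCC bound by TEAD proteins, and the site AGATAA known for GATA factors. The MEF2 box and the CArG box of serum response factor were searched as well, and no match overlapped another in these windows. TGACAG occurred in 0 of the 7 windows and in 19.2% of all 32851 promoters, CATTCC in 0 and 14.7%, and the CArG box in 0 and 1.63%. The MEF2 box occurred in 1 window, that of Casq2, and in 3.19% of all promoters, and AGATAA in 2, those of Pln and Slc8a1, and in 11.2%. The 3 windows printed are those of the release channel gene Ryr2, of its calsequestrin partner with the MEF2 box, and of the pump inhibitor gene, with matches in capitals, 5′ to 3′ on the gene's strand.
Ryr2, chr13:12106896-12107195, minus strand: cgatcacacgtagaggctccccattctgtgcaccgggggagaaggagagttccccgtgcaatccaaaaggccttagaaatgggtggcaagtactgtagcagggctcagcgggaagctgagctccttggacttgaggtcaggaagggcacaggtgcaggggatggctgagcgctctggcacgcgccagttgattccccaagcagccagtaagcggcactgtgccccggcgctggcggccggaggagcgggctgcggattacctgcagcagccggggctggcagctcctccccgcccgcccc
Casq2, chr3:102086165-102086464, plus strand: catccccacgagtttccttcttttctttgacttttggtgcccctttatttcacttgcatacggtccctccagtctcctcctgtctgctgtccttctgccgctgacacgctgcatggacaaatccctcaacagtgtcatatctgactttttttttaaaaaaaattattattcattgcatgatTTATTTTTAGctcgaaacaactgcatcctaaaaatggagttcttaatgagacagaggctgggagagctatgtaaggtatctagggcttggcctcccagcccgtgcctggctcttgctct
Pln, chr10:53337436-53337735, plus strand: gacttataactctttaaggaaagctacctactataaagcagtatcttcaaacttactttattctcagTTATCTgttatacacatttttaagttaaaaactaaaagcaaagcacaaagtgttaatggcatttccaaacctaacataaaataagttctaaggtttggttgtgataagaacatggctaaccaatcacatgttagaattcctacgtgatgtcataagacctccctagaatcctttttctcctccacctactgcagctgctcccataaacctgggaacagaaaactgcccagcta
The capitals mark the MEF2 box of Casq2 at -69 to -60 from its start site and the reverse complement of AGATAA in Pln at -183 to -178 from its start site. G and C made up 65.3% of the Ryr2 window, 44.7% of that of Casq2 and 36.0% of that of Pln, beside a median of 52.7% over all promoters. A match is a description of these letters and not evidence of binding.

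Ryr2 (ENSMUSG00000021313) encodes the cardiac ryanodine receptor, the main release channel of heart muscle. Its gene lies on the minus strand of chromosome 13 (GRCm38, 11553102 to 12106945). It was at 103, 187 and 266 normalised reads in control 1, 2 and 4 and at 454, 725 and 584 in dKO 1, 2 and 3. The groups were separate, with dKO 1 at 1.71 times the highest control. The means were 186 ± 81.7 (SD, n = 3) and 588 ± 136 (SD, n = 3), a ratio of 3.17 (log2 change 1.74, SE 0.30, limma adjusted p = 0.0027).

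Ryr3 (ENSMUSG00000057378) encodes a ryanodine receptor of low abundance in many tissues, brain and smooth muscle among them. The gene lies on the minus strand of chromosome 2 (112631355 to 113217096), where 4.83% of its exonic bases overlap Aven on the opposite strand. Ryr3 was at 1.64, 5.84 and 2.83 in control 1, 2 and 4 and at 29.9, 18.8 and 19.0 in dKO 1, 2 and 3. These values rest on 26, 91 and 44 reads in controls and 480, 253 and 390 reads in dKO libraries. The lowest dKO library stood at 3.21 times the highest control, the widest gap of the 9 genes. The means were 3.43 ± 2.17 (SD, n = 3) and 22.5 ± 6.34 (SD, n = 3), a ratio of 6.57. On the log2 scale with 1 added, which understates so low a gene, the change was 2.49 (SE 0.35, limma adjusted p = 0.00088), and edgeR on recovered reads gave 2.73. With control 1 and dKO 1 left out, the ratio of means was 4.36. Aven was at 13.6 to 21.0 in controls and 21.5 to 32.3 in dKO libraries (log2 change 0.62, limma adjusted p = 0.0649), and reads in the overlap cannot be assigned without strand.

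Ryr3 was set against Ryr2 within each library, since both are release channels of one family. Counted per kilobase of exon (18977 bases for Ryr3, 28790 for Ryr2), the Ryr3 level in controls 1, 2 and 4 was 2.41%, 4.73% and 1.61% of the Ryr2 level. In dKO 1, 2 and 3 it was 9.97%, 3.92% and 4.95%. Ryr2 thus remained the far more abundant channel in every library, and the groups overlapped, with control 2 above dKO 2. On log2 of the value plus 1, Ryr3 minus Ryr2 was on average -5.40 among controls (SD 0.68, n = 3) and -4.65 among dKO libraries (SD 0.69, n = 3), a difference of 0.75 (exact two-sided permutation p = 0.3; the smallest possible with 3 against 3 libraries is 0.1). Without dKO 1 the difference was 0.37 and without control 4 it was 0.39. With 4 added in place of 1, a constant above the Ryr3 values of control 1 and 4, it was 0.13. It was larger with 0.25 added (1.02), with quantile normalization (0.87), without control 2 (1.06) and without dKO 2 (1.03). In those settings the exact two-sided permutation p was 0.2 to 0.3. The larger rise of Ryr3 than of Ryr2 was therefore not separable from the spread between libraries.

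**Figure D2:**
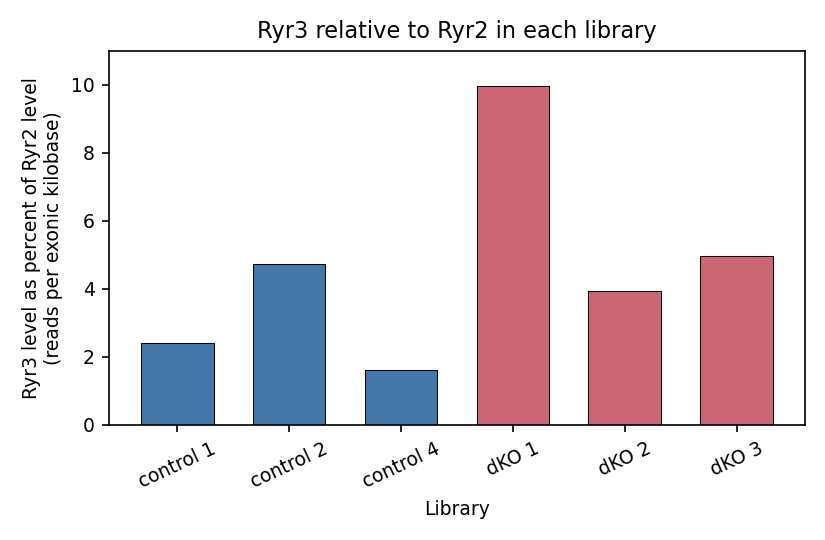
Level of Ryr3 as a percent of the level of Ryr2 in each library, both as reads per exonic kilobase, with controls in blue and dKO libraries in red. The value of 9.97% in dKO 1 stands above the rest, and control 2 at 4.73% lies above dKO 2 at 3.92%.

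In dKO 1, where Ryr3 was highest, some other genes of calcium handling also stood apart from dKO 2 and 3. Sarcolipin (Sln), the inhibitor of SERCA pumps in atrial muscle, was at 39.4 in dKO 1 against 2.77 and 2.75 in dKO 2 and 3 and 4.44 to 7.40 in controls. The L-type channel subunit gene Cacna2d2 was at 29.8 in dKO 1, 2.85 and 2.36 in dKO 2 and 3, and 0.413 to 2.44 in controls. Neither passed the test (limma adjusted p = 0.776 and 0.153), and both were singled out after their values were seen. The atrial and conduction markers did not share one order among the dKO libraries. Sln, Nppa, Hcn4, Irx3, Cacna1g and Etv1 were highest in dKO 1, Gja5, Kcnj3 and Scn10a were lowest there, and Bmp10 and Kcna5 lay between. Gja5, a connexin gene, was at 24.9 in dKO 1 against 48.05 and 43.4 in dKO 2 and 3. Nppa, the atrial natriuretic peptide gene, was at 34.2 in dKO 1 against 5.96 and 21.7. Of the cardiomyocyte markers, Myl4 was at 327 in dKO 1 against 155 and 212 in dKO 2 and 3, and Myl7 at 296 against 118 and 126. Myh7 and Ttn were highest in dKO 2 instead. Of 11 measured atrial and conduction markers 4 were higher and 0 lower in dKO, and their summed level was 73.8 to 99.2 in controls and 151 to 214 in dKO. Their part in the level of Ryr3 was not tested. Without dKO 1 the log2 change of Ryr3 was 2.28, and it passed the limma test in all 6 fits that each left out 1 library.

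Casq2 (ENSMUSG00000027861) encodes the calcium-binding protein of the cardiac store (plus strand of chromosome 3, 102086415 to 102146514). It was at 191, 411 and 542 in control 1, 2 and 4 and at 771, 892 and 873 in dKO 1, 2 and 3. The dKO libraries lay close together, with a coefficient of variation of 7.72% against 46.6% in controls. The means were 381 ± 178 (SD, n = 3) and 845 ± 65.3 (SD, n = 3), a ratio of 2.22 and the smallest rise of the 9 (log2 change 1.27, SE 0.31, limma adjusted p = 0.0152). The log2 change was 0.84 without control 1.

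Trdn (ENSMUSG00000019787) encodes triadin, which anchors calsequestrin to the release channel (plus strand of chromosome 10, 33080554 to 33476709). It was at 32.3, 83.1 and 74.1 in control 1, 2 and 4 and at 129.9, 178 and 176 in dKO 1, 2 and 3. All dKO values exceeded the highest control, that of control 2, by at least 1.56 times. The log2 change was 1.43 (SE 0.30, limma adjusted p = 0.0074).

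Jph2 (ENSMUSG00000017817) encodes junctophilin 2 (minus strand of chromosome 2, 163336242 to 163397993). It was at 26.0, 57.9 and 69.9 in control 1, 2 and 4 and at 186, 150.4 and 147 in dKO 1, 2 and 3. Here dKO 1 was the highest library, and the lowest dKO value was 2.11 times the highest control. The log2 change was 1.74 (SE 0.30, limma adjusted p = 0.0026), with means of 51.3 ± 22.7 (SD, n = 3) and 161 ± 21.4 (SD, n = 3).

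Hrc (ENSMUSG00000038239) encodes the histidine-rich calcium binding protein of the store and has a short gene of 3685 bases (plus strand of chromosome 7, 45335290 to 45338974). It was at 30.7, 59.96 and 67.8 in control 1, 2 and 4 and at 109, 161 and 149 in dKO 1, 2 and 3. The groups were separate, with dKO 1 again the lowest of its group. The log2 change was 1.44 (SE 0.27, limma adjusted p = 0.0039).

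Atp2a2 (ENSMUSG00000029467), the pump gene, had the highest level of the 9 per kilobase of exon (minus strand of chromosome 5, 122453513 to 122502225). It was at 899, 1646 and 2034 in control 1, 2 and 4 and at 3653, 4699 and 4371 in dKO 1, 2 and 3. Its lowest dKO library was 1.80 times its highest control. The means were 1526 ± 577 (SD, n = 3) and 4241 ± 535 (SD, n = 3), a ratio of 2.78 (log2 change 1.55, SE 0.29, limma adjusted p = 0.0044).

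Pln (ENSMUSG00000038583) encodes the small membrane protein that inhibits this pump (plus strand of chromosome 10, 53337667 to 53345987). It was at 263, 638 and 508 in control 1, 2 and 4 and at 1059, 1303 and 1124 in dKO 1, 2 and 3, so the groups did not overlap. The log2 change was 1.39 (SE 0.28, limma adjusted p = 0.0057). In the GENCODE M21 annotation 64.7% of its exonic bases overlap Cep85l and the predicted gene Gm47644 on the opposite strand, and the library kit is not stated to keep strand, so reads there cannot be assigned to one gene. Most of the overlap is with Gm47644, which was not analysed here. Cep85l, which covers the smaller part of it, was at 26.5 to 36.5 in controls and 28.1 to 34.9 in dKO libraries (log2 change 0.04, limma adjusted p = 0.879). The ratio of Pln to Atp2a2 in normalised reads, not adjusted for length, in controls 1, 2 and 4 was 0.293, 0.388 and 0.2498, and that in dKO 1, 2 and 3 was 0.2901, 0.277 and 0.257. The dKO values lay inside the range of the controls, and the difference on the log2 scale was -0.15 (exact two-sided permutation p = 0.6).

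Slc8a1 (ENSMUSG00000054640) encodes the sodium-calcium exchanger of the surface membrane (minus strand of chromosome 17, 81373105 to 81738377). It was at 53.5, 71.1 and 109 in control 1, 2 and 4 and at 135, 323 and 365 in dKO 1, 2 and 3. The spread was wide in dKO, where dKO 1 stood at only 1.23 times the highest control and the coefficient of variation was 44.8%. The means were 77.9 ± 28.4 (SD, n = 3) and 274 ± 123 (SD, n = 3), a ratio of 3.52 (log2 change 1.74, SE 0.35, limma adjusted p = 0.0065). Without dKO 1 the log2 change was 2.19.

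**Figure D3:**
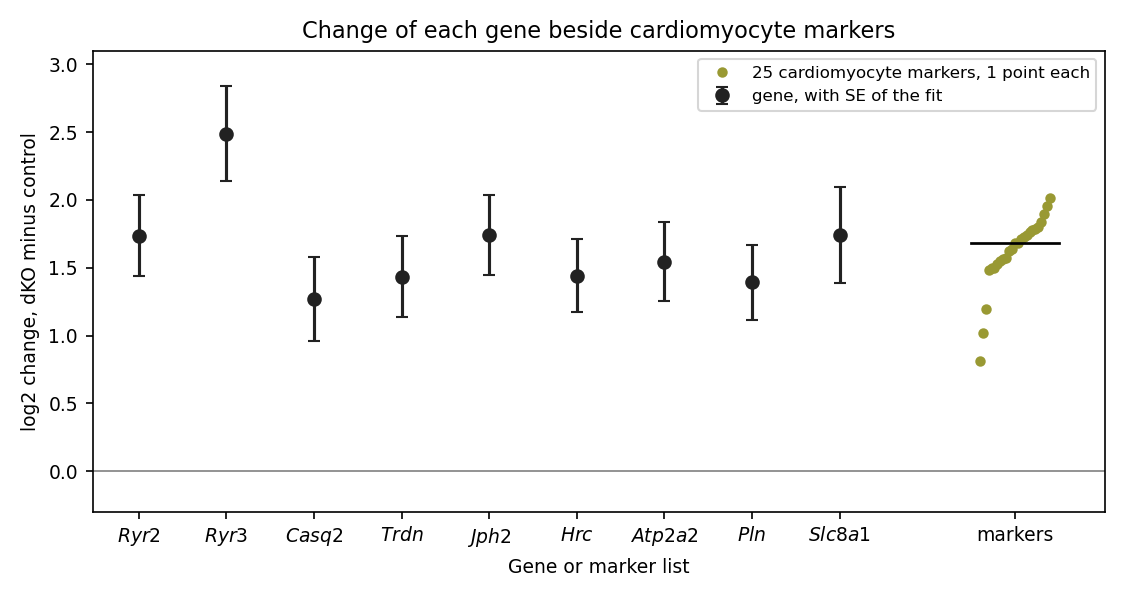
Log2 change (dKO minus control) of each of the 9 genes with the standard error of the limma fit as bars, beside 25 cardiomyocyte markers as 1 point each with a line at their median. The calcium genes other than Ryr3 lie between 1.27 and 1.74, within the range of the markers (0.81 to 2.01), and Ryr3 lies at 2.49.

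The order of levels among the 9 genes was taken from normalised reads per kilobase of exon. In controls the order was Atp2a2 (251), Pln (170.2), Casq2 (139), Hrc (20.6), Jph2 (12.0), Trdn (6.76), Ryr2 (6.45), Slc8a1 (4.14) and Ryr3 (0.181). The step from Casq2 to Hrc and that from Slc8a1 to Ryr3 were the only ones where the control libraries of neighbours did not overlap. Within the same library, Atp2a2 was above Pln, Casq2 above Hrc, and Jph2 above Trdn in all 6 libraries. Ryr2 was above Slc8a1 and Slc8a1 above Ryr3 in all 6 as well. Pln was above Casq2 and Hrc above Jph2 in 5 of 6. In dKO the order was Atp2a2 (697), Pln (421), Casq2 (309), Hrc (54.4), Jph2 (37.9), Ryr2 (20.4), Trdn (17.3), Slc8a1 (14.6) and Ryr3 (1.19). The means of Ryr2 and Trdn thus exchanged places, but within libraries Trdn was above Ryr2 in control 2 alone (8.89 and 6.51). By the longest coding transcript the mean of Trdn was above that of Ryr2 in both groups. Trdn and Ryr2 overlapped in both groups, as did Hrc and Jph2, and Jph2, Trdn and Ryr2 also changed places when the longest coding transcript was used as the length. The pump, its inhibitor and calsequestrin were thus the 3 most abundant per length in both groups and by both lengths.

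The rise of each gene was then set beside that of heart muscle markers in the same library, by subtracting the mean log2 value of the 25 cardiomyocyte markers. That mean was 6.74 in control 1, 7.79 in control 2 and 7.80 in control 4, and it was 9.21 in dKO 1, 8.98 in dKO 2 and 8.99 in dKO 3. Against it, 4 genes were higher and 5 lower in dKO, with differences from -0.34 for Casq2 to 0.88 for Ryr3. For 7 of the 9 genes the groups overlapped, so for these 7 no difference from the markers was seen beyond the spread between libraries. The share of all genes with separate groups after this subtraction was not computed, so the count has no background beside it. Ryr3 was at -5.35, -5.01 and -5.87 relative to the markers in control 1, 2 and 4 and at -4.27, -4.67 and -4.66 in dKO 1, 2 and 3, with all dKO libraries above all controls. Casq2 was at 0.84, 0.90 and 1.28 in controls and at 0.38, 0.82 and 0.79 in dKO, with all dKO libraries below. For both the exact two-sided permutation p was 0.1, the smallest possible, and 0.45 adjusted over the 9 genes. With 4 added in place of 1, the differences were 0.30 for Ryr3 and -0.28 for Casq2 and the exact permutation p was 0.4 for each. With 0.25 added they were 1.12 and -0.37, and with quantile normalization 0.98 and -0.34. The exact permutation p stayed at 0.1 for each in those settings. The count of genes higher relative to the markers was 7 without dKO 1 and 2 without dKO 2.

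**Figure D4:**
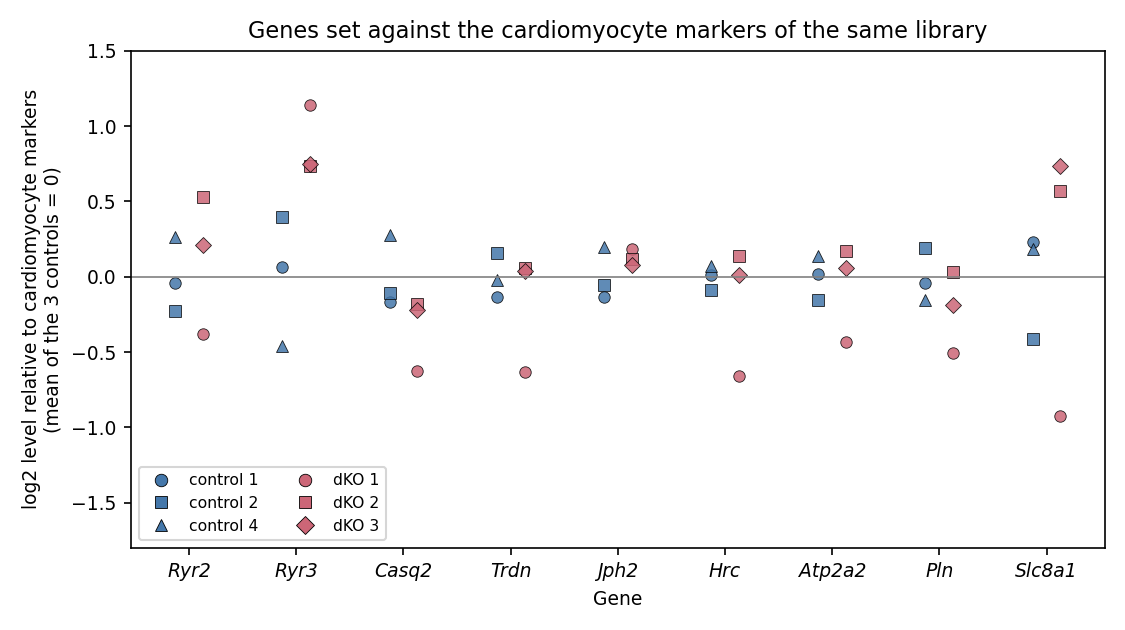
Log2 level of each gene minus the mean log2 level of 25 cardiomyocyte markers in the same library, shifted so that the mean of the 3 controls is 0, with controls in blue and dKO libraries in red. Only Ryr3 (dKO above) and Casq2 (dKO below) have separate groups, and dKO 1 (red circle) is the lowest library for Ryr2, Casq2, Trdn, Hrc, Atp2a2, Pln and Slc8a1.

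With the cardiomyocyte mean as a covariate in the fit of all genes, 0 of the 9 genes passed, where 0.412% of all genes were called higher and 1.84% in either direction. The log2 changes were then 0.27 for Ryr2, 0.90 for Ryr3, 0.10 for Hrc, 0.14 for Atp2a2 and 1.13 for Slc8a1, and they were negative for Casq2 (-0.58), Trdn (-0.25), Jph2 (-0.21) and Pln (-0.16). The standard error for Ryr3 was 0.66 in that fit against 0.35 without the covariate. It rose less for Casq2 (0.39 against 0.31), and for Jph2 it did not rise (0.28 against 0.30). The covariate itself had separate groups, so genotype and muscle content cannot be told apart with these libraries. None of the 25 markers passed in that fit either, but the covariate is their own mean, so that outcome was largely set in advance. Lists for other cell types that could hold these genes moved as well. Of 10 mural markers 7 were higher and 0 lower (summed level 720 to 1121 in controls, 2094 to 2264 in dKO). Acta2 was the largest part of that sum (255 to 522 in controls, 1015 to 1286 in dKO), and Myh11 (-0.20), Tagln (0.35) and Notch3 (0.34) did not pass. Of 6 measured skeletal muscle markers 3 were higher (Casq1, Ckm and Acta1) and 0 lower, and Tnni2 (0.94), Tnnt3 (-0.29) and Mylpf (0.22) did not pass. The defining factors Myod1, Myog and Myf5 were looked for and were not among the measured genes. The part of mural and skeletal muscle cells in the 9 genes was not tested.

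Relations between partners were also examined as ratios within a library, over 7 pairs in all. Casq2 was at 1.85, 2.19 and 2.04 times Ryr2 in control 1, 2 and 4 and at 1.70, 1.23 and 1.50 times in dKO 1, 2 and 3, counted in normalised reads without regard to length. All dKO ratios lay below all control ratios, with a log2 difference of -0.47 (exact two-sided permutation p = 0.1, adjusted p = 0.35 over the 7 pairs). Hrc against Ryr2 differed by -0.29 on log2 of the value plus 1 (exact permutation p = 0.1, adjusted p = 0.35). Its plain ratios overlapped, at 0.2544 in control 4 and 0.2546 in dKO 3. Trdn and Jph2 against Ryr2 differed by -0.30 and 0.00 and Slc8a1 against Atp2a2 by 0.19, with exact permutation p of 0.3, 1 and 0.7. No pair passed, and with 3 libraries a group none could.

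By likeness of profile over the 6 libraries, measured as the root mean square difference of log2 values centred on each gene's mean among 10946 genes, Ryr2 lay nearest to Myocd (0.14), a coactivator of muscle genes, and to Srl (0.14), which encodes the store's calcium-binding protein sarcalumenin. Next came Atp2a2 (0.15), the lipid enzyme gene Acacb (0.16) and the formin gene Fhod3 (0.16). Srl was at 402 in controls and 1184 in dKO. The nearest to Ryr3 were less close: Atcayos (0.33), the muscle kinase gene Srpk3 (0.34), mt-Co3 (0.38), the catenin gene Ctnna2 (0.38) and the troponin C gene Tnnc1 (0.40). Likeness to a gene that was higher in dKO selects others that were higher, and the mean minimum of 5 over the libraries was met by Ctnna2 (2.03 in controls, 16.4 in dKO) only through its dKO libraries. Among the 9 themselves the closest pair was Hrc and Atp2a2 (0.09) and the least alike was Ryr3 and Slc8a1 (0.87).

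The other genes of calcium handling moved in both directions, by role. Of 79 listed genes 68 were measured, of which 18 were higher in dKO, 13 lower and 37 did not pass, with a median log2 change of 0.04. Over all genes 9.81% were called higher and 12.2% lower, and no test of a role was run. Those of the muscle junction and the L-type channel that passed were all higher, and the general endoplasmic reticulum calcium-binding genes that passed were all lower. The number lower was 7 without control 2, control 4 or dKO 3 and 8 without dKO 2. With edgeR on recovered reads it was 9, and the falls of Slc8a3, Orai2 and Sdf4 did not pass (edgeR adjusted p = 0.068, 0.065 and 0.052).

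**Figure D5:**
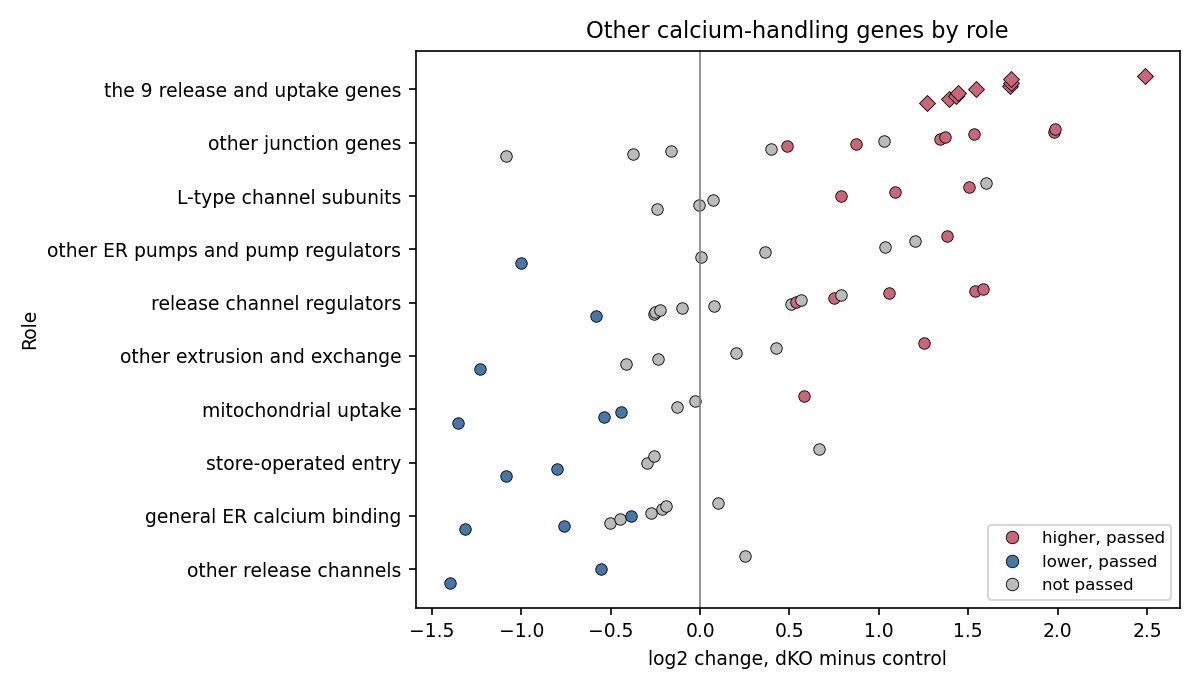
Log2 change (dKO minus control) of 68 other calcium-handling genes as circles, by role, and of the 9 release and uptake genes as diamonds in the top row. Red marks genes that passed as higher, blue those that passed as lower and grey those that did not pass, and ER stands for endoplasmic reticulum. The rows of junction genes and L-type channel subunits hold red points and no blue ones, and those of other release channels, store-operated entry and general binding proteins hold blue points and no red ones. The remaining 4 roles hold both.

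Among L-type channel subunits 3 of 7 were higher and 0 lower. The pore gene Cacna1c rose from 94.6 ± 31.0 to 263 ± 36.2 (SD, n = 3 each, log2 change 1.50), and its partner subunit genes Cacnb2 and Cacna2d1 rose by 1.09 and 0.79. Of 12 other junction genes 7 were higher and 0 lower, among them Cmya5 (1.98), the kinase gene Speg (1.34) and Casq1, the calsequestrin best known from skeletal muscle, which rose from 18.9 ± 8.55 to 74.2 ± 11.9 (SD, n = 3 each, log2 change 1.99, limma adjusted p = 0.00068). Of 14 regulators of the release channel 5 were higher and 1 lower. Those higher included the anchoring protein gene Akap6 (1.54) and the kinase genes Camk2d (1.06) and Prkaca (0.75), which act on the receptor or its complex.

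The inositol trisphosphate receptor genes, which encode the release channels of most cells outside muscle, were not among those higher: of 3 measured, Itpr3 fell from 24.0 ± 6.69 to 8.35 ± 1.83 (SD, n = 3 each, log2 change -1.40) and Itpr1 fell by 0.55 on the log2 scale. Itpr2 did not pass (0.25). Of 5 store-operated entry genes 2 were lower and 0 higher: the store sensor gene Stim1 fell from 62.5 ± 3.93 to 29.5 ± 7.32 (SD, n = 3 each, log2 change -1.09) and the channel gene Orai2 by 0.80. The non-cardiac pump gene Atp2a3 was lower (12.3 in controls, 5.74 in dKO) and the phosphatase inhibitor gene Ppp1r1a higher (1.38), 1 gene each way of 6. Among 6 other extrusion and exchange genes, Fxyd1, which encodes phospholemman, was higher (1.25) and the exchanger gene Slc8a3 was lower (-1.23).

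Of 6 genes of mitochondrial calcium uptake, 3 were lower, among them the pore gene Mcu (-0.54) and its inhibitory relative Mcub (-1.36), and Smdt1, a small subunit of the same channel, was higher (0.58). Of 9 general calcium-binding proteins of the endoplasmic reticulum and secretory pathway, 3 were lower and 0 higher, with Rcn3 at -1.32, Rcn1 at -0.76 and Sdf4 at -0.39. Markers of fibroblasts, in which reticulum proteins of this kind are abundant, were lower for 9 of 10 members, with a summed level of 29022 to 32664 in controls and 12053 to 15564 in dKO. The part of fibroblasts in these falls was not tested. With the cardiomyocyte mean as a covariate, 0 of the 68 genes passed.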

How the data were processed

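Polyadenylated RNA of 6 pooled libraries was compared, 3 control and 3 dKO, grouped by title. The submitters' processing notes name cutadapt, RSEM 1.3.1 and the build GRCm38. How values were normalised, which genes were dropped and whether strand was used in counting are not stated in the labels. The table the authors deposited holds a normalised signal, and each of its 87294 values, divided by a constant of its library, gave whole reads after 0.5 was taken off, within 0.01 reads.

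Log2 of the value plus 1 was fitted with limma 3.58.1 in R 4.3.3 (moderated variances with a trend, no covariate). Genes needed 1 or more in at least 3 libraries, which all 14549 met, as did all 9 calcium genes. P-values are two-sided and Benjamini-Hochberg adjusted over all 14549 genes, with a threshold of 0.05. edgeR 4.0.16 (quasi-likelihood) was run on the recovered reads as an alternative. Per the labels' protocols the replicates are pools of different hearts from several litters, with no map of pools to litters. Exon lengths and overlaps are from GENCODE M21. The 9 genes and all lists were chosen with earlier results of these data known. Named genes were the 9, Meis1 and Meis2, and up to 3 passing genes of smallest p in each role. The 5 nearest profiles of Ryr2 and Ryr3 were named as well. Itpr2, Sln, Cacna2d2, Gja5, Nppa, Srl's level, Cep85l and Aven were added after their values were seen. The same holds for all other measured markers named, apart from Actc1, Myh7, Ttn, Tnnc1 and Casq1. Of the cardiomyocyte markers, the 3 of highest mean were Actc1, Myh7 and Ttn, with log2 changes of 1.50, 2.01 and 1.89.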

Additional observations from a re-analysis of the deposited data

How the results depend on the processing

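The rise of the 9 calcium genes passed in every alternative run except the cardiomyocyte mean as a covariate, where 0 of 9 passed: 2 added constants, a stricter filter (5 or more in at least 3 libraries), no variance trend, quantile normalization, edgeR, the replicate block, a covariate from the Ddx3y and Xist levels, and the fits without libraries. A run with no filter was the main fit again, since every gene met the filter. In the fit with the cardiomyocyte mean as a covariate, Casq2, Trdn, Jph2 and Pln reversed (-0.58, -0.25, -0.21 and -0.16), Meis1 did so too (0.96), and Meis2 was at -0.63 (limma adjusted p = 0.56). It called 268 genes (60 higher, 208 lower), and 0 other calcium genes (0 higher, 0 lower). It also called 0 cardiomyocyte markers, whose own mean was the covariate. The cause was not tested. The replicate block (1 residual degree of freedom) called 1360 genes (580 higher, 780 lower), and 13 other calcium genes (1 lower). Same-numbered libraries deviated in opposite directions (correlations -0.18 and -0.20), so shared numbers were not taken as pairs; all 9 calcium genes passed with the block too. Leaving out each library in turn gave 2153 to 2717 genes changed, 881 to 1265 higher (905 without dKO 2, 881 without dKO 3) and 1261 to 1556 lower, 21 to 27 other calcium genes changed, 7 to 12 of them lower, and a Ryr3 to Ryr2 difference of 0.37 to 1.06. Relative to the cardiomyocyte markers, 2 to 7 of the 9 genes were higher in those fits. The difference from the markers then ran from -0.18 to 0.65 for Slc8a1 (-0.08 without control 2, -0.10 without dKO 2, -0.18 without dKO 3), from -0.19 to 0.11 for Atp2a2 (0.0001 without control 4, 0.11 without dKO 1), from -0.30 to 0.046 for Trdn and from -0.32 to 0.073 for Hrc (both highest without dKO 1), and was -0.083 for Ryr2 without dKO 2. Without control 1 and dKO 1 together it was 0.081 for Hrc and 0.12 for Atp2a2. Meis1 ran from -0.32 to 0.045 (without control 1) and was 0.13 without control 1 and dKO 1. Quantile normalization moved the median of all genes from 0.00 to 0.04. Depth limits Ryr3 most, with 161 reads over the 3 controls.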
